A study of Homo sapiens with 4 samples.

Results

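The transcriptome of knockout library 8, 1 RNA library of A375 cells labelled as p53 knockout, was set against the 2 libraries of the parental line. A375 is an established human melanoma cell line. The parental libraries carry wild-type p53, and the knockout libraries come from A375 cells in which p53 was disrupted with CRISPR-Cas9; all cells were grown in DMEM, and polyadenylated RNA was sequenced. The study has 4 libraries, parental 1, parental 2, knockout 2 and knockout 8, numbered as in the deposited table; the numbers 2 and 8 do not say which labelled replicate each knockout library is. It is not stated in the labels if the libraries came from separate cultures, if a knockout library is 1 clone, or if 2 and 8 are clone numbers, and none of the 4 libraries is from edited cells that kept p53. Whatever editing and outgrowth brought with them therefore cannot be told apart from loss of p53 here.

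Of the 26484 gene symbols in the table, the 12239 with a mean normalized count of at least 100 over library 8 and the parental pair were analysed. For each, the difference between log2(normalized count + 1) in library 8 and the mean of the same quantity over the parental libraries was taken. The difference between parental 2 and parental 1 served as the measure of noise. With 1 knockout library there is no replicate of the knockout side, so sizes are given without p-values, and "higher" or "lower" below means at least 2-fold unless another fold is given. Normalized counts are not corrected for gene length and compare libraries within a gene only; below, a pair of values is that of parental 1 and parental 2, and the value after it, unless said otherwise, that of library 8. Library 2 was used only to see which differences it shared, and its differences use the same parental pair. In bulk RNA, fewer cells with a transcript and less of that transcript per cell cannot be told apart.

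p53 is a transcription factor that responds to DNA damage and other stresses by activating genes for cell-cycle arrest, apoptosis, DNA repair and its own negative regulator MDM2. Through p21, the CDKN1A product, it also restrains cell-cycle genes indirectly, and several metabolic and inflammatory programmes, among them sterol synthesis and NF-kB target genes, are known to respond to p53 status in some cell types. Melanomas often keep the wild-type gene and hold the protein in check in other ways.

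Library 8 differed from the parental pair in 97 genes that were higher (0.793% of those analysed) and 118 that were lower (0.964%). Between the parental libraries 0 genes were higher (0%) and 5 lower (0.0409%) in parental 2. At a threshold of 1.5-fold, 392 genes were higher (3.2%) and 411 lower (3.36%) in library 8, against 7 (0.0572%) and 46 (0.376%) between the parental libraries. The spread of the log2 differences over genes was 0.35 (SD) for library 8 and 0.14 for the parental pair. Of these, 12 were at least 4-fold higher and 17 at least 4-fold lower, and 1 and 8 passed 8-fold. In 79 of the 97 higher genes and 88 of the 118 lower ones, library 8 lay beyond both parental libraries by 2-fold. ANGPTL4, a secreted inhibitor of lipoprotein lipase with normalized counts of 1342 and 426 in the parental libraries and 287 in library 8, was the 1 gene past 2-fold whose difference was smaller than that between the parental libraries.

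**Figure D1:**
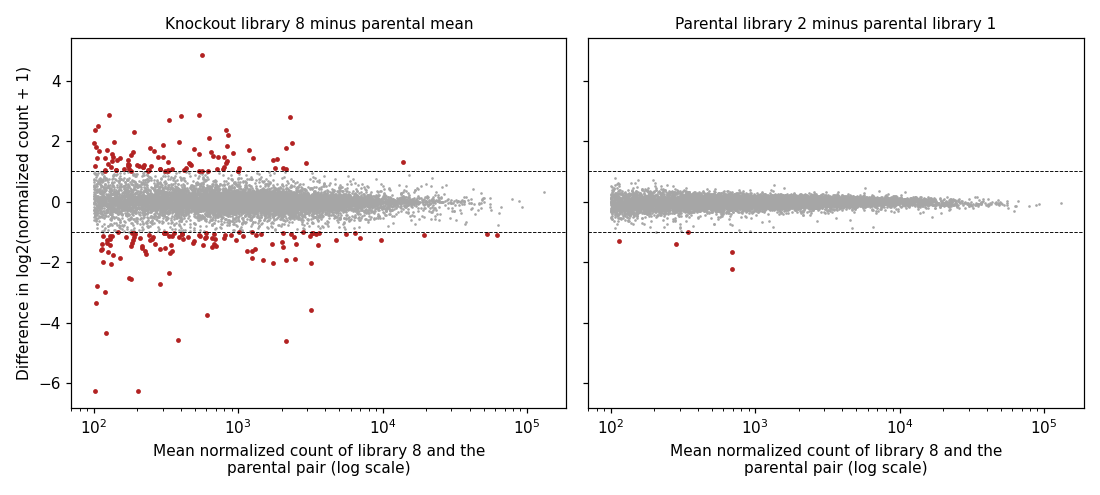
Difference in log2(normalized count + 1) against the mean normalized count (log axis) for the 12239 genes, one point per gene, for library 8 minus the parental mean (left) and parental 2 minus parental 1 (right). Red points lie at or past 2-fold (dashed lines): 215 genes on the left and 5 on the right.

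The share of genes past 2-fold depended on the level, at 5.17% of 1742 genes with a mean of 100 to 300 and 0.594% of 2863 genes with a mean of at least 3000. Total recovered reads ran from 29230554 to 36331894 over the 4 libraries. The minimum mean let 94 genes in through library 8 although their parental mean was below 100, and 22 of the 97 higher genes are among them. It kept out 60 genes with a parental mean of at least 100, of which 14 were lower. At the boundary, GAP43, a growth-cone protein, had 49.3 and 52.6 in the parental libraries and 198 in library 8, and PARD3B, a cell polarity protein, had 98.7 and 67.5, then 134. Just outside it lay APOL3 (106 and 78.9, then 114), which encodes an apolipoprotein L, and the pseudogene YWHAEP1 (87.7 and 92.1, then 120.1).

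The upstream sequences below belong to genes of inflammatory signalling above both parental libraries in library 8, CXCL8 and TNFAIP3 by less than 2-fold. Values of these genes follow. The sequences were picked because each holds the letters of an AP-1 or NF-kB motif. These are the binding sites of JUN/FOS dimers and of the RELA and REL family. The sequences are the 250 bases before the annotated start on GRCh38.p14, from RefSeq, read 5′ to 3′ on the plus strand, with capitals marking the motifs. CXCL8 is at chr4:73740319-73740568, BIRC3 at chr11:102317234-102317483, CCL20 at chr2:227813592-227813841, TNFAIP3 at chr6:137867009-137867258 and SERPINB2 at chr18:63887455-63887704.
CXCL8: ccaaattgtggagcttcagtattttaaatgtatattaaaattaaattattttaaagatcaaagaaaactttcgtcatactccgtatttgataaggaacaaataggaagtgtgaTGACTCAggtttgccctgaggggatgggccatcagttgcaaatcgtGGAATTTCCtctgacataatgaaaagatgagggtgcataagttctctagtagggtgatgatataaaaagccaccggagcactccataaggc
BIRC3: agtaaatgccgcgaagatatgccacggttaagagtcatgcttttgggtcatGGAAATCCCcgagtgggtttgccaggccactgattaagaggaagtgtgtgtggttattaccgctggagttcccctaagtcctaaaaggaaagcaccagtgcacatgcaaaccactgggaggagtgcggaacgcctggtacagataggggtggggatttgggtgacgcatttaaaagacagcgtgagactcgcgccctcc
CCL20: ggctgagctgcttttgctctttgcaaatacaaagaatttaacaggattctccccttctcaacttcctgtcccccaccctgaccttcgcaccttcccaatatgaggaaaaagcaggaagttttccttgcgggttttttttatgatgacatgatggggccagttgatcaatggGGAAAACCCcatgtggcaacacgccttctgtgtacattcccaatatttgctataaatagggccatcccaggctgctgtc
TNFAIP3: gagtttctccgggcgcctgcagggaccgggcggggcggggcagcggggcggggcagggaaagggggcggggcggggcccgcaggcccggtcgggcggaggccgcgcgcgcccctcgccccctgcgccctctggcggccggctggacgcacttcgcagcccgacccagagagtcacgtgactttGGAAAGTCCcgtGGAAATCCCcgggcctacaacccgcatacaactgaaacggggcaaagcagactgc
SERPINB2: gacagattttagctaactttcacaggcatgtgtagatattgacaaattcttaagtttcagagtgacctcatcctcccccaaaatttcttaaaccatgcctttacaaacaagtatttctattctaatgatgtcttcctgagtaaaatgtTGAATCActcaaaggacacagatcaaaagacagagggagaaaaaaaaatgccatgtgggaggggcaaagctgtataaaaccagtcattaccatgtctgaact
The searched letters were TGANTCA for AP-1 and GGNNTTTCC for NF-kB, on both strands, with N any base; a match on the minus strand appears above as its reverse complement. CXCL8 held TGACTCA from 137 to 131 bases and GGAATTTCC from 91 to 83 bases before the start. TNFAIP3 held 2 NF-kB matches within 67 bases of the start. BIRC3 and CCL20 held 1 each, and SERPINB2 held the AP-1 letters TGAATCA only. The higher inflammatory genes CCL2, CSF2 and PTGS2 had no match, or no entry to search, and are not shown.

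Over all 35116 promoters of the table, 6.57% held the AP-1 letters and 5.48% the NF-kB letters in this window. Among the analysed genes with an entry (9904 of 12239), the shares were 6.03% and 8.16%. Of the higher genes, 73 of 97 had an entry, and 7 (9.59%) held the AP-1 and 9 (12.3%) the NF-kB letters. Among them PRDM1, counted for both motifs, and SERPINB2, counted for AP-1, reached the minimum mean through library 8 alone. Of the lower genes, 85 of 118 had an entry, with 14 (16.5%) holding AP-1 and 7 (8.24%) NF-kB letters. In the list of NF-kB inflammatory genes described next, 16 of 26 (61.5%) held the NF-kB letters and 4 (15.4%) the AP-1 letters; known NF-kB targets make up that list, so the share describes how the list was made. A match is a run of letters and not a measured binding site.

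Inflammatory genes were on the higher side of library 8. The list of NF-kB inflammatory genes holds targets and subunits of this stress-activated pathway. Of its 32 analysed members, 6 were higher and 0 lower, 13 were at least 1.5-fold higher and 0 at least 1.5-fold lower, and 29 lay above both parental libraries. Over all analysed genes, library 8 lay above both parental libraries in 39.7% and below both in 42.1%. At 2-fold, 0.793% of all analysed genes were higher and 0.964% lower, and at 1.5-fold 3.2% and 3.36%. These shares are the reference for the list counts that follow. SERPINB2 reached the minimum mean through library 8 alone; with the minimum set on the parental mean, the list had 31 members, 5 higher and 0 lower, and a median of 0.45. Over the 32 members, the median log2 difference was 0.46, beside -0.0042 over all analysed genes, -0.17 between the parental libraries and 0.36 in library 2. The parental libraries themselves thus differed on this list, with parental 2 below parental 1.

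Of the 6 higher members, 3 are secreted cytokines. CCL2, the monocyte chemoattractant, had 667 and 690.3 in the parental libraries and 2229.7 in library 8 (3.28-fold higher), with 1556 in library 2. CSF2, which encodes the cytokine GM-CSF, had 203 and 121, then 579 (3.68-fold higher), but 62.1 in library 2. CCL20, the ligand of CCR6, showed the same arrangement, at 217 and 166, then 526, and 47.4 in library 2. Both genes were thus above the parental pair in library 8 and below it in library 2. SERPINB2, the plasminogen activator inhibitor PAI-2, had 49.3 and 34.2 in the parental libraries, 235 in library 8 (5.61-fold higher) and 299 in library 2. PTGS2, the inducible cyclooxygenase, had 667 and 475, then 1248, and library 2 reached 6179.7. BIRC3, an inhibitor of apoptosis whose own gene is an NF-kB target, had 2082 and 1909, then 4886 (2.45-fold higher), while library 2 with 2139.5 was close to the parental values.

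Most members below 2-fold lay above the parental pair too. CXCL8, the neutrophil chemokine interleukin 8, had 12830.4 and 11148 in the parental libraries and 21814 in library 8 (1.82-fold). TNFAIP3, the NF-kB feedback inhibitor A20, had 884 and 876, then 1636. The subunit genes NFKB1 (5022 and 5138, then 6957), NFKB2 (6992 and 6536, then 9106) and RELB (1798 and 1699, then 2412) also lay above both parental libraries. Of the list, BCL3 (970.3 and 866, then 772) was the 1 member below both. Genes of this kind outside the list went both ways. TNFAIP6, a hyaluronan-binding protein induced by TNF, had 143 and 78.9, then 337, against 32.6 in library 2. PTX3, a soluble pattern recognition protein, had 1047 and 1233, then 2932. Lower were the cytokine gene IL24 (6183 and 7465, then 3225) and the interleukin 6 receptor gene IL6R (967 and 996, then 462).

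**Figure D2:**
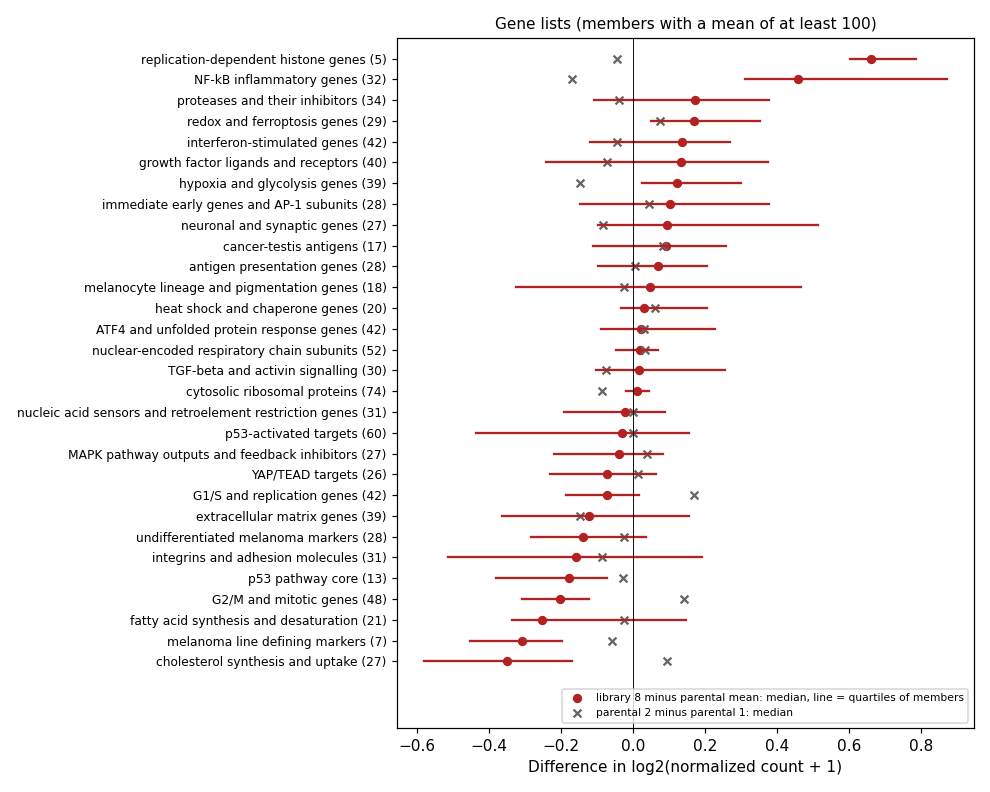
Median difference in log2(normalized count + 1) of each gene list with at least 5 analysed members (number in brackets), for library 8 minus the parental mean (red, with a line from the first to the third quartile of members) and parental 2 minus parental 1 (grey crosses). The NF-kB list lies at 0.46 and the cholesterol list at -0.35, while the parental medians of all lists shown lie between -0.17 and 0.17.

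Immediate early genes and AP-1 subunits are switched on within minutes of growth factor or stress signals. Of 28 analysed members, 3 were higher and 0 lower, and the median was 0.10. EGR2, a zinc finger factor, had 195 and 147 in the parental libraries and 1253 in library 8 (7.35-fold higher), with 1056 in library 2. JUN, the core AP-1 subunit, had 421 and 474, then 1601 (3.58-fold higher), with 1008 in library 2. The orphan nuclear receptor NR4A3 had 214 and 271, then 498, with 208 in library 2. FOSL2, another AP-1 subunit, was 1.67-fold above the parental mean at 1362. Outputs of the MAPK pathway, which is driven by BRAF in A375, had a median of -0.04 over 27 members, with EPHA4 higher (308 and 346, then 761) and EPHA2 at 3159.9 and 3637, then 1745, at least 1.5-fold lower.

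The largest increase was that of MMP1, the interstitial collagenase, from 55.9 and 50.9 in the parental libraries to 1581 in library 8, or 29.1-fold; library 2 had 153.7. Of 40 growth factor ligands and receptors, 3 were higher (AREG, IGFBP5 and VEGFC) and 1 was lower (NGFR). AREG, a ligand of the EGF receptor, had 123 and 141, then 947 (7.15-fold higher), with 1342 in library 2. IGFBP5, which binds insulin-like growth factors, had 799 and 716, then 5314 (7.02-fold higher), and library 2 with 721 stayed between the parental values. ESM1, the proteoglycan endocan, had 37.3 and 44.7, then 300.8 (7.21-fold higher), against 36.8 in library 2. Both MMP1 and ESM1 reached the minimum mean through library 8 alone. STC1, a secreted glycoprotein that responds to hypoxia and calcium, was high in both knockout libraries, at 4662 in library 8 and 3978 in library 2 against 1220.3 and 1187. VEGFC, the lymphatic growth factor, had 159 and 199.99, then 366. DKK1, an inhibitor of Wnt signalling, had 112 and 163, then 463 (3.41-fold higher).

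Genes of other kinds also had large increases. PRDM1, the transcriptional repressor Blimp-1, had 49.3 and 35.1, then 219.7 (5.18-fold higher), with 429 in library 2. ACPP, a phosphatase that can release adenosine outside the cell, had 369 and 322, then 1772 (5.12-fold higher), and library 2 had nearly the same value, 1705. PDE4B, which degrades cyclic AMP, had 312 and 279.8, then 1287, and 3339 in library 2. LYPD3, a GPI-anchored surface protein, had 183 and 209.6, then 768. PTPRN, a protein of dense-core vesicles, had 87.7 and 53.5, then 274, a pair of parental values that themselves differ. PCSK1, the prohormone convertase, went from 1308 and 1068 to 4031 and was at 652 in library 2. PPP4R3CP, a pseudogene with related functional copies whose reads cannot be separated with certainty, had 81.1 and 80.7, then 404 and is listed at 0 in library 2. DCAF17, a substrate receptor of a ubiquitin ligase, had 373 and 394, then 1768 (4.604-fold higher) and 356 in library 2.

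**Figure D3:**
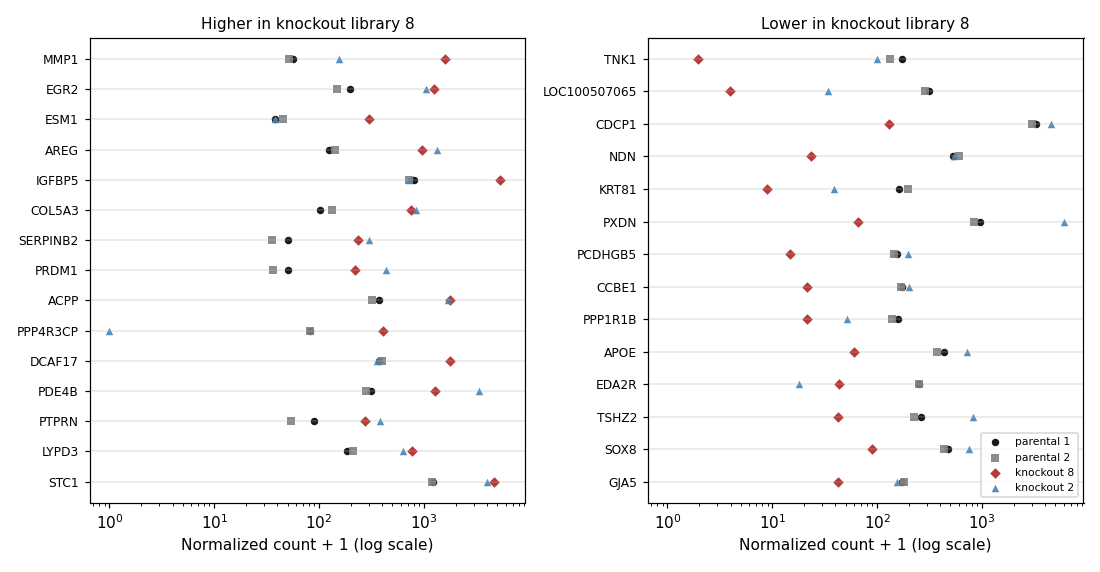
Normalized count + 1 (log axis) in each of the 4 libraries for 15 genes with the largest increases (left) and 14 genes with the largest decreases (right) of library 8 against the parental mean, one symbol per library. Parental values differ most for PTPRN (87.7 and 53.5), and library 2 lies with library 8 for some genes (ACPP, COL5A3, STC1), with the parental pair for others (IGFBP5, ESM1, NDN) and on the other side for PXDN, TSHZ2 and PPP4R3CP.

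The 2 deepest decreases, those of TNK1 and LOC100507065, left 1 and 3 reads in library 8. TNK1, a non-receptor tyrosine kinase, had 172 and 132 in the parental libraries and 1 read in library 8; the ratio of normalized counts was 0.00651, with an exact 95% interval of 1.64e-04 to 0.0365 that covers counting error only, and library 2 had 97.9. The uncharacterised locus LOC100507065 had 314 and 287 and 3 reads, a ratio of 0.00981 (0.00202 to 0.0288), with 32.6 in library 2. CDCP1, a transmembrane protein phosphorylated by Src kinases, had 3267 and 2988, then 128 (24.2-fold lower), while library 2 with 4557 was above both parental libraries. NDN, the imprinted growth suppressor necdin, had 523 and 603, then 22.5 (23.99-fold lower), and 537 in library 2. PXDN, the peroxidase that cross-links collagen IV, had 946 and 829, then 64.5 (13.5-fold lower), and 6014 in library 2. Library 2 thus did not share the low values of CDCP1 and NDN, and for PXDN the 2 knockout libraries lay on opposite sides of the parental pair.

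Other large decreases concerned surface, signalling and developmental genes. KRT81, a hair keratin with close paralogues, had 162 and 197, then 7.81, and 37.9 in library 2. PCDHGB5, of the clustered protocadherins, whose transcripts share exons, had 153.5 and 145, then 13.7. CCBE1, needed for lymphatic development, had 172 and 167, then 20.51, with 202 in library 2. PPP1R1B, the phosphatase inhibitor DARPP-32, had 157 and 139, then 20.51. APOE, the lipid carrier, had 429 and 373, then 59.6 (6.62-fold lower), against 712 in library 2. The transcription factor genes TSHZ2 (259.9 and 225, then 41.02) and SOX8 (473 and 436, then 87.9) were lower in library 8, and both exceeded the parental values in library 2, at 828 and 746. GJA5, a gap junction protein, had 171 and 181, then 41.02. The Hedgehog co-receptor gene BOC (2105 and 1869, then 517) and TGM2, which encodes a protein cross-linking enzyme (4485 and 4104, then 1062), were lower in both knockout libraries, with 425 and 1824 in library 2.

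Among abundant genes, with a mean of at least 5000, the 5 largest decreases were those of TBC1D4, LOXL4, HMCN1, ACSS2 and IL24. TBC1D4, a Rab GTPase-activating protein of glucose transporter traffic, had 12442 and 11702, then 5069. LOXL4, a lysyl oxidase of the matrix, had 82878 and 67394, then 34677, and HMCN1, the matrix protein hemicentin, had 26672 and 20584, then 11043. IL24, a cytokine of the interleukin 10 family, had 6183 and 7465, then 3225, and 219 in library 2. ALDH1A3, which makes retinoic acid, had 65863 and 61317, then 30507 (2.08-fold lower). Of abundant genes, PMEPA1, a feedback inhibitor of TGF-beta signalling, was the 1 that was at least 2-fold higher, with 10525 and 8121, then 22744. CXCL8, TFRC (3878 and 5342, then 8118, the transferrin receptor), SQSTM1 (17861 and 17424, then 30466, the autophagy adaptor p62) and ITGAV (5208 and 4907, then 8586, the integrin alpha-V chain) followed at under 2-fold.

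The p53-activated targets included members on either side of the parental pair. Over all analysed genes, 0.793% were higher and 0.964% lower, and 3.2% and 3.36% passed 1.5-fold. Of 60 analysed members of the p53 target list, 1 was higher and 2 were lower, 6 and 8 passed 1.5-fold, and the median was -0.03. The 2 lower ones were EDA2R, a receptor of the TNF receptor family (252 and 249.99 in the parental libraries, 42.0 in library 8, 5.86-fold lower, 16.8 in library 2), and PHLDA3, an inhibitor of AKT (3463 and 3296, then 1678, but 6137 in library 2). The 1 higher member was PRDM1, which reached the minimum mean through library 8 alone; with the minimum set on the parental mean, 0 of 59 members were higher, 2 were lower, and 5 and 8 passed 1.5-fold. GDF15, a secreted stress cytokine, missed both minimums, with 112 and 78.9, then 31.3 (2.94-fold lower), and 24.2 in library 2. BTG2, an antiproliferative gene, had 587 and 527, then 282 (1.97-fold lower). The damage-recognition gene DDB2 had 2094 and 2126, then 1138, and TP53INP1 had 441 and 389, then 221; both passed 1.5-fold and had similar values in library 2, 1019 and 210.5. CDKN1A, which encodes the cell-cycle inhibitor p21, had 3561 and 3889 in the parental libraries and 2603 in library 8, 1.43-fold lower, and 4898 in library 2, so the knockout libraries lay on either side of the parental pair. MDM2, whose product marks p53 for degradation, had 4359 and 4775, then 4111, a log2 difference of -0.15. The death receptor FAS (488 and 500.0, then 816) and the apoptosis gene PMAIP1 (767 and 831, then 1227) were at least 1.5-fold higher, while BBC3 (499 and 500.0, then 484) and BAX (2441 and 2587, then 2026) differed by less. CDKN2A, whose product ARF restrains MDM2, had 310.3 and 222, then 169, with parental values that differ from each other.

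Sterol genes were on the lower side. Of 27 analysed genes of cholesterol synthesis and uptake, 0 passed 2-fold, 7 were at least 1.5-fold lower and 0 at least 1.5-fold higher, and 22 lay below both parental libraries and 1 above (42.1% and 39.7% of all analysed genes). The median was -0.35, beside 0.10 between the parental libraries and -0.51 in library 2. INSIG1, which retains the SREBP complex when sterols are plentiful, had 5753 and 5928, then 3265 (1.79-fold lower). HMGCS1, which makes HMG-CoA, had 5669 and 6579, then 3663. The pathway enzymes MSMO1 (2216 and 2417, then 1395) and HSD17B7 (982 and 1132, then 634) were at least 1.5-fold lower as well. Of 21 genes of fatty acid synthesis, ACSS2, which makes acetyl-CoA from acetate, was lower (8884 and 8262, then 3729, 2.30-fold), FASN, the fatty acid synthase, was at least 1.5-fold lower (42723 and 43326, then 26979), and the median was -0.25.

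Cell-cycle genes differed by small amounts. Of 48 G2/M and mitotic genes, 0 passed 1.5-fold, and 41 lay below both parental libraries and 0 above, against 42.1% and 39.7% over all analysed genes. Their median was -0.20, beside 0.14 between the parental libraries and 0.12 in library 2. The mitotic kinase gene NEK2 had 1638 and 1810.4, then 1179.8, the kinesin gene KIF20A 3823 and 4119, then 2928, and CENPF, a kinetochore protein, 11268 and 11918, then 8610.2. Of 42 G1/S and replication genes, 0 passed 1.5-fold and the median was -0.07. Polyadenylated histone transcripts were measured for 5 of 38 replication-dependent histone genes, which share near-identical coding sequences; 4 were at least 1.5-fold higher, led by HIST1H2BK (463 and 450.0, then 804), with a median of 0.66 and 0.01 in library 2.

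Genes of the matrix and of adhesion went in both directions. Of 39 analysed extracellular matrix genes, 3 were higher and 5 lower, beside 0.793% and 0.964% of all analysed genes. COL5A3, a chain of type V collagen, had 102 and 131, then 758 (6.52-fold higher), with 842 in library 2; it was among the 15 largest increases and is not in the list. VCAN, the proteoglycan versican, had 298 and 255, then 929, and SPP1, osteopontin, had 236 and 200.9, then 536. ACAN, the cartilage proteoglycan aggrecan, had 3274 and 2390.2, then 739 (3.78-fold lower), against 2909 in library 2. LOXL2 (3043 and 2624, then 1332) and BGN, biglycan (1274 and 1166, then 607), were lower in library 8 and above the parental values in library 2, at 4156 and 2486. Of 31 integrins and adhesion molecules, 1 was higher and 3 lower: L1CAM, a neural adhesion molecule, had 382 and 455, then 851, while the integrin chains ITGA9 (1747 and 1529, then 448) and ITGA10 (4825 and 4294, then 1674) and the adhesion gene NCAM2 (906 and 750.0, then 397) were lower. Among 34 proteases and inhibitors, MMP1 and SERPINB2, both with a parental mean below the minimum, were higher, and MMP19 (179.8 and 148, then 59.6) and MMP17 (1481 and 1511, then 739) were lower.

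Markers of the melanoma cell state gave no common direction. Of 28 markers of undifferentiated melanoma, 2 were higher (JUN and DKK1) and 3 lower (NGFR, CYR61 and LOXL2), with a median of -0.14. NGFR, the neural crest receptor, had 275 and 352, then 133, and CYR61, a secreted YAP target, had 1521 and 1706, then 753. Of 18 melanocyte lineage genes, 0 passed 2-fold. MITF, the lineage transcription factor, had 1645 and 1562, then 1049.9, with 849 in library 2, while the melanosome genes GPNMB (2743 and 2725, then 4416) and MREG (317 and 315, then 558) were at least 1.5-fold higher. Of 26 YAP/TEAD targets, CYR61 and RBMS3, an RNA-binding protein (1658 and 1307, then 469.8), were lower. In the TGF-beta list of 30 genes, PMEPA1 was higher, and the activin antagonist gene FST had 11276 and 14239.6, then 7207. Neuronal genes included 3 higher of 27 analysed, or 2 of 25 with the minimum set on the parental mean, which GAP43 does not reach: GAP43, the neurofilament gene NEFL (515 and 596, then 1413) and the axon guidance receptor gene ROBO2 (172 and 139, then 356, but 70.5 in library 2).

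Most interferon and stress genes stayed within 1.5-fold, but some interferon-stimulated genes passed it. Of 42 interferon-stimulated genes, 0 were higher and 1 was lower, BST2, the membrane tether of budding viruses (310.3 and 241, then 98.6). At least 1.5-fold higher were 6 of the 42, beside 3.2% of all analysed genes. Among the 6 were IRF1 (685 and 672, then 1179.8) and the RNA sensor IFIH1 (268 and 261, then 449). Of 31 nucleic acid sensors and restriction genes, 0 passed 2-fold, and the DNA sensor AIM2 had 1639 and 1557, then 1017. Of 29 redox genes, the heme oxygenase HMOX1 was higher (171 and 185, then 360.4) and AKR1C2, whose paralogues are nearly identical, was lower (702 and 602, then 303). The hypoxia list had STC1 as its 1 higher member of 39, with a median of 0.12 beside -0.15 between the parental libraries. Besides the cell-cycle lists, those with 0 members past 1.5-fold in either direction were ATF4 and unfolded protein response genes (42 members, median 0.02), heat shock and chaperone genes (20, 0.03), cytosolic ribosomal proteins (74, 0.01), respiratory chain subunits (52, 0.02) and antigen presentation (28, 0.07). HLA-DOA, an HLA gene outside the antigen presentation list, was lower (491 and 471, then 215), with 27.4 in library 2. Of 17 analysed cancer-testis antigens, 0 passed 2-fold. Below the minimum mean, MAGEA1 (82.2 and 108, then 23.4) and GAGE1 (45.0 and 63.2, then 1.95) were past 2-fold lower. So were SSX1 (42.8 and 36.8, then 6.84), CTAG2 (24.1 and 25.4, then 2.93) and TEX15 (23.0 and 54.4, then 2.93). MAGEB2 (13.2 and 11.4, then 21.5), also below the minimum, lay above both parental libraries by less than 2-fold.

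Library 2 had more genes past 2-fold than library 8, with 258 higher (2.11%) and 257 lower (2.1%). Of the 97 genes higher in library 8, 53 were also higher in library 2, which is 54.6% of the library 8 genes and 20.5% of the library 2 genes. The 97 include 22 genes with a parental mean below 100, which reached the minimum through library 8, PRDM1 among them. Of the 118 lower genes, 39 were lower in library 2, or 33.1% and 15.2%. Because both comparisons use the same parental libraries, a chance deviation of a parental value enters both, and these counts are given as descriptions. Genes high in both knockout libraries included ACPP, COL5A3, AREG, EGR2, PRDM1, STC1 and VCAN, and genes low in both included EDA2R, TGM2, BOC, ALDH1A3 and FAM20A (2443 and 2209 in the parental libraries, 575 in library 8, 49.5 in library 2), a protein that assists the secretory kinase FAM20C.

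Some genes past 2-fold in library 8 were near the parental level in library 2. Of the higher genes, 19 lay within 1.2-fold of the parental mean in library 2, and of the lower genes 26 did. The share of all analysed genes within 1.2-fold in library 2 was not counted, so these counts have no reference. On the higher side were IGFBP5, ESM1, DCAF17, the lysozyme gene LYZ (80.0 and 113, then 263, with 114 in library 2), the protocadherin gene PCDH20 (68.0 and 57.9, then 201.2, with 58.9 in library 2) and the secreted factor gene C1QTNF1 (394 and 368, then 1177, with 385 in library 2). The receptor gene CD163L1 (82.2 and 78.1, then 243) and the Golgi-associated gene ARFGEF3 (216 and 138, then 478) complete the 8 largest. Of these, ESM1, LYZ, PCDH20 and CD163L1 reached the minimum mean through library 8 alone. On the lower side were NDN, CCBE1, GJA5, ACAN, ITGA9, MMP19 and the kinase gene WNK4, a regulator of ion transport, with 3348 and 3245, then 889, and 3620.2 in library 2. The noncoding gene LOC158435 had 232 and 231, then 83.0. Over all analysed genes, 2.11% were higher and 2.1% lower in library 2. A further 6 higher and 7 lower genes of library 8 passed 2-fold in the opposite direction in library 2. They included CSF2, CCL20, PXDN and TSHZ2, and also SEMA3G, a semaphorin, at 458 and 434 in the parental libraries, 145 in library 8 and 2525 in library 2.

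**Figure D4:**
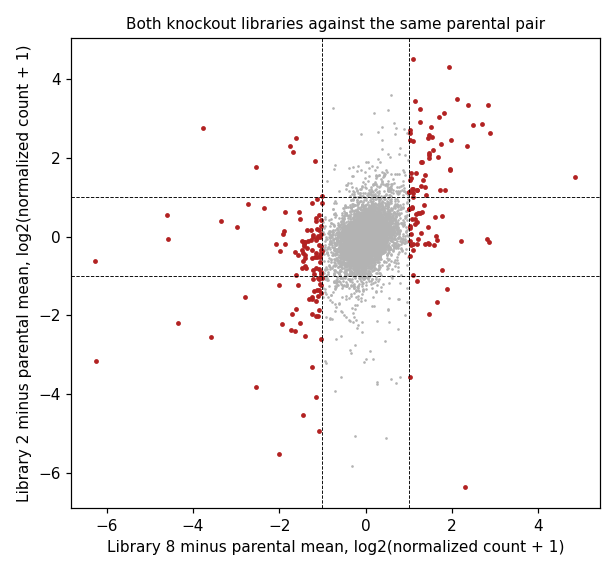
Difference from the parental mean in log2(normalized count + 1) in library 8 (horizontal axis) and library 2 (vertical axis), one point per gene for the 12239 genes; dashed lines mark 2-fold and red points are the 215 genes past 2-fold in library 8. The upper right corner holds the 53 genes higher in both and the lower left corner the 39 lower in both; the axes share the parental libraries.

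Whole chromosome segments also stood apart in library 8. The 298 analysed genes of chromosome 2q24-q37 had a median log2 difference of 0.45 (a factor of 1.37), with quartiles of 0.29 and 0.61, and 88.9% of them lay above both parental libraries, against 39.7% over all analysed genes. The medians of the same genes were -0.02 between the parental libraries and 0.03 in library 2. Higher genes there numbered 10 and lower genes 0: IGFBP5, DCAF17, PTPRN, CCL20, RAPH1, KLF7, EPHA4, CYBRD1, COL6A3 and DLX2. Of these, DLX2, a homeobox gene, had 412 and 386, then 809, RAPH1, an actin regulator, 1189 and 1199.9, then 3171, and CYBRD1, a ferric reductase, 1331 and 1293, then 2816. IGFBP5 and DCAF17 exceeded the segment median by far, while DLX2, COL6A3 and CYBRD1 passed 2-fold by little. ITGAV, IFIH1, MREG and PARD3B also lie in this segment. The 544 genes of 1q had a median of -0.23 (a factor of 1.17 lower), with 77.6% below both parental libraries (42.1% over all analysed genes), 13 lower genes and 2 higher; the median was 0.03 in library 2. Genes named above that lie there include the lower GJA5, ITGA10, HMCN1, IL24 and PHLDA3, and HSD17B7, BTG2, AIM2, NEK2 and CENPF. PTGS2 and S100A2, a calcium-binding protein (269.7 and 363, then 750.1), are the 2 higher ones. Without both segments, 85 genes were higher and 105 lower. Whether DNA copy number moves with these medians was not tested.

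**Figure D5:**
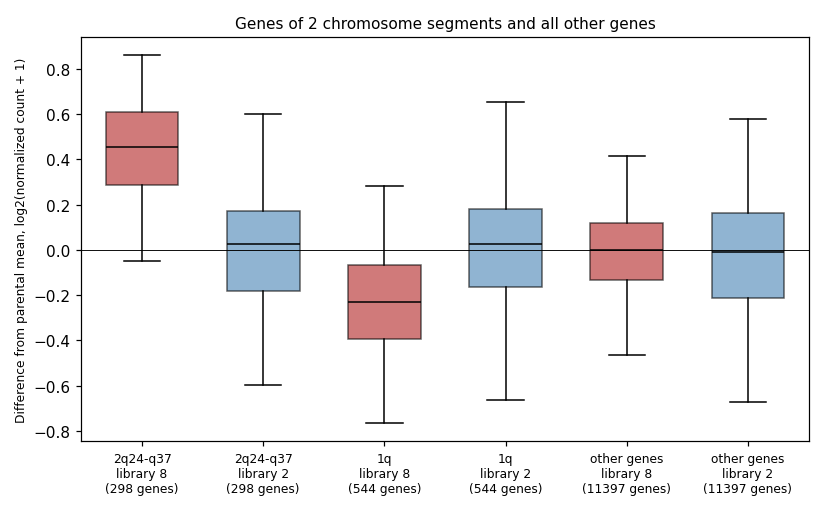
Difference from the parental mean in log2(normalized count + 1) for genes of 2q24-q37, of 1q and all other genes, in library 8 (red) and library 2 (blue). Boxes span the quartiles, black lines are medians and whiskers run from the 5th to the 95th percentile; the medians of library 8 are 0.45 on 2q24-q37, -0.23 on 1q and -0.0025 elsewhere.

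Most defining melanoma markers were present in all libraries. Of 11 defining markers, 7 were analysed, among them SOX10 (30033 and 29587, then 25662), CSPG4 (54957 and 52772, then 58469) and S100B (2138 and 2037, then 1428). TYR and MLANA are listed at 0 in all 4 libraries, and PMEL and DCT were below the minimum. The summed level of all 11 was 115108 and 112279 in the parental libraries and 108081 in library 8, and 6 of the 7 analysed were below both parental libraries, as were 42.1% of all analysed genes. Of fibroblast, epithelial, blood cell and endothelial markers, 4 of 11, 4 of 13, 2 of 14 and 1 of 7 were analysed. Over all entries of each list, summed levels were 1781 and 1660.4, then 1774, for fibroblasts, 8518 and 8406, then 7246, for epithelium, 1807 and 1577, then 1252, for blood and 470.4 and 601, then 694, for endothelium. A single gene gave the largest part of each sum. It was PDGFRB (829 and 847, then 764) for fibroblasts and KRT18 (6548 and 6494, then 5569) for epithelium. For blood it was CD68 (1704 and 1448, then 968), and for endothelium KDR (411 and 532, then 611). The markers THY1, CDH1, KRT19, HBB and MS4A1 are listed at 0 in the parental libraries and in library 8, and COL3A1, EMCN and PTPRC stayed under 2. CLDN4, a tight junction gene counted as epithelial, was lower in library 8 (632 and 689, then 299.8), and LYZ, counted as a blood cell marker and with a parental mean below the minimum, was higher. The part of these markers in the differences above was not tested.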

How the data were processed

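Polyadenylated RNA of A375 cells was sequenced after TRIzol extraction, DNase treatment and preparation with a strand-specific NEBNext kit, per the labels' protocols. The deposited table holds a normalized signal per gene. The values show that the authors scaled read counts with a size factor for each library: 100% of values were whole multiples of the library's step within 0.001. The factors were 0.912 and 1.14 for parental 1 and 2, 0.950 for knockout 2 and 1.02 for knockout 8. The tools were STAR, HTSeq, DESeq2, Picard and deepTools and the build was hg38, per the submitters' processing notes; their versions, the gene annotation, the strand setting and the handling of multiply aligned reads were not given in the sources used here.

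Differences were taken on log2(normalized count + 1), which understates changes of low genes, with pandas 2.3.3 and numpy 2.4.6. The members and the 34 gene lists (1220 entries, 11 of them found under another symbol) were chosen with earlier results of these data known. Named were the fixed genes CDKN1A and MDM2 among others; the 15 largest differences each way past 2-fold and larger than the parental difference; up to 4 members per list past 1.5-fold and larger than the parental difference; the 5 largest each way with a mean of at least 5000; the 8 largest each way within 1.2-fold in library 2; up to 4 genes past 2-fold in opposite directions in the knockout libraries; and the 2 genes on each side of the minimum mean. Other genes were named after their values were seen. The level of the gene that was knocked out, some other list members and 1 chromosome segment are not reported here. Positions and upstream sequences are from RefSeq on GRCh38.p14.

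Reads of the parental libraries differed by more than sampling noise over the analysed genes, with a chi-square of 6.96 per degree of freedom, beside 41.3 and 41.4 between library 8 and either of them, so both were kept as separate libraries. Recovered reads of library 8 and the parental pair were also passed to edgeR 4.0.16 (R 4.3.3), an alternative chosen after seeing the data that was tested on simulated data and that assumes library 8 to vary like the parental libraries. Its quasi-likelihood test with Benjamini-Hochberg adjustment called 1457 genes higher and 1628 lower at 0.05; it compares these libraries, not the conditions, and no result rests on it. The other alternatives were another pseudocount, other minimum means, TMM factors, equal totals, a fold of 1.5 and leaving out a parental library or chromosome segments.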

Additional observations from a re-analysis of the deposited data

How the results depend on the processing

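Counts are given in the order higher in library 8, lower in library 8, higher in both knockout libraries and lower in both; as reported they are 97, 118, 53 and 39, and the spread over genes is 0.349. A minimum mean of 10 gave 370, 311, 168 and 106 with a spread of 0.498, and a minimum mean of 1000 gave 13, 38, 7 and 19 with a spread of 0.256, because more or fewer genes enter. A threshold of 1.5-fold gave 392, 411, 149 and 155. The spread was 0.333 with a pseudocount of 10, 0.337 without 2q24-q37 and 1q (chosen after seeing the data), and 0.348 to 0.363 without 1 parental library. TMM factors (98 and 119 genes), equal totals (103 and 113) and a filter on the parental mean (75 and 132) kept the counts of higher and lower genes within 1.5 times. Leaving out parental 1 gave 104 and 101, and leaving out parental 2 gave 104 and 139. Of 72 named genes past 2-fold, 61 stayed past it and 72 kept their sign in every setting that held them. There were 11 settings, but another minimum mean or a segment left out removed some genes, which were therefore run in fewer. The medians of 25 of 34 lists kept their sign. No paired analysis was possible because only 1 knockout library is compared and the knockout columns carry no replicate number of the labels. With 1 knockout library, the spread between knockout cultures is not measured, and values near the minimum mean carry the most counting error.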

Other observations

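Several noncoding RNAs, named after their values were seen, were past 2-fold in library 8. NKILA, a noncoding RNA known to be induced by NF-kB and to inhibit it, had 528 and 313 in the parental libraries, 1167 in library 8 and 2813 in library 2. LUCAT1, a stress-induced noncoding RNA, had 133 and 78.9, then 215, with 318 in library 2. On the lower side, LINC01419 had 6063 and 5804, then 2490.5, and EWSAT1 had 999.9 and 1174, then 509. HNRNPU-AS1 (2277 and 2062, then 813) and VIM-AS1 (389 and 373, then 186) overlap other genes, and the strand setting of the counting is not given in the sources used here.

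Other single genes were also named after their values were seen. CYP26B1, an enzyme that degrades retinoic acid, had 126 and 119 in the parental libraries, 283 in library 8 and 281 in library 2. TERT, the catalytic subunit of telomerase, had 253 and 217, then 110.4, with 203 in library 2. The semaphorin gene SEMA3F had 214 and 251, then 96.7, with 421 in library 2. The interleukin 7 receptor gene IL7R had 49.3 and 64.0, then 199, with 501 in library 2, and the selenium-dependent peroxidase gene GPX3 had 150.2 and 151, then 481, with 619 in library 2, so both were high in the 2 knockout libraries. IL7R reached the minimum mean through library 8 alone.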
